A study of Mus musculus with 32 samples.

Results

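The SP and KLF proteins are zinc-finger transcription factors that bind GC-rich and CACCC sequences in promoters. The 10 genes followed here were *Sp1*, *Sp3*, *Klf2*, *Klf3*, *Klf4*, *Klf5*, *Klf6*, *Klf9*, *Klf10* and *Klf13*. They were chosen because the study had tied the SP/KLF motif to tumors in which *Lkb1* was not restored. The choice among the family genes was made with earlier results of these data known. All 10 were found by symbol among the 53558 genes of the deposited files, and all 10 passed the filter on low counts in every comparison.

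The RNA came from tdTomato-marked neoplastic cells sorted from lung adenocarcinomas of mice on a mixed background, after removal of cells bearing blood, endothelial or red cell antigens. Every mouse carried *Rosa26*LSL-tdTomato, a reporter switched on by Cre, and tumors were started by Lenti-Cre given into the airway and marked by the reporter. *KT* tumors (4 libraries, mice not treated) had intact *Lkb1*, whose gene symbol is *Stk11*. In *Lkb1*XTR/XTR mice Cre also inverts a gene trap in *Lkb1* that silences it, and FLPo-ERT2, a recombinase active only with tamoxifen, removes the trap again. Non-restored tumors (10 libraries) pooled 4 libraries of mice without FLPo-ERT2 that received tamoxifen and 6 of mice with FLPo-ERT2 that received corn oil vehicle. Restored tumors (7 libraries) had FLPo-ERT2 and received tamoxifen. *Trp53*flox/flox versions of both states gave 7 non-restored libraries from 4 animals, summed per animal, and 4 restored libraries from 4 animals. Of those 4 non-restored animals, 2 had FLPo-ERT2 and received vehicle and 2 lacked it and received tamoxifen, and 2 were female and 2 male. Treatment lasted 2 weeks with tamoxifen doses of 4 mg. Tumors had grown for 24 to 27 weeks with wild-type *Trp53* and for 16 to 19 weeks without it. All restored libraries came from female mice, as did 2 of 4 *KT* and 7 of 10 non-restored libraries. For the non-restored and restored tumors with wild-type *Trp53*, the paper counts fewer mice than there are libraries. The labels do not say which of these libraries share a mouse. Each was treated as a replicate, so p-values from these libraries, also those of correlations, measure the spread between libraries and not between mice.

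With wild-type *Trp53*, *Lkb1* followed its labels. Its level was 16.7 to 27.5 CPM (TMM-scaled read counts relative to a fixed library size) in *KT*, 0 to 1.08 CPM in non-restored and 11.7 to 22.5 CPM in restored tumors, and *Trp53* was 1.37 to 4.88 CPM in the *Trp53*-deficient groups against 11.7 to 39.7 CPM elsewhere. Library totals ran from 1302482 to 5943951 counts, and 3 counts corresponded to 0.505 to 2.30 CPM. Epithelial markers were present throughout, with *Epcam* between 207 and 645 CPM. The endothelial marker *Pecam1* was at most 29.4 CPM and the blood cell marker *Ptprc* at most 46.3 CPM. Non-restored library 8 stood apart from its group, with the lowest summed level of 10 alveolar type II markers (6537 CPM against a group median of 58455 CPM) and the highest sum of 6 airway markers (6469 CPM against 126 CPM). Values that move most when it is left out are given with and without it.

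SP1 and SP3 bind the GC box GGGCGG and act at a large share of promoters, SP3 as activator or repressor. Among the KLF proteins, KLF2, KLF4, KLF5 and KLF6 mainly activate transcription, KLF3 represses it through the CtBP corepressors, and KLF9, KLF10 and KLF13 recruit the SIN3A corepressor. In the lung, KLF2 is known from endothelium and lymphocytes, and KLF4, KLF5 and KLF6 from epithelium.

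The promoters of some of the genes, printed here, show how family genes themselves hold the family's sites. RefSeq promoters (GRCm38.p6, from 250 bases before to 50 bases after the start) were given for 8 of the 10 genes. The stretches upstream of the annotated gene are printed 5′ to 3′, with every GGGCGG and every GGGNGTGG, a KLF-type site, in capitals on either strand. Sites of the 2 kinds may overlap.

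*Klf2*, chr8:72318812-72319032, plus strand: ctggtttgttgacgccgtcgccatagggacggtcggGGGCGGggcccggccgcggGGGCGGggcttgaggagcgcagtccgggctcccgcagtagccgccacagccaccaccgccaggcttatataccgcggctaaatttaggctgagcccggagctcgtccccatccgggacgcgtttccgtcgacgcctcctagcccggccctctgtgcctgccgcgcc

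*Klf4*, chr4:55532476-55532725, minus strand: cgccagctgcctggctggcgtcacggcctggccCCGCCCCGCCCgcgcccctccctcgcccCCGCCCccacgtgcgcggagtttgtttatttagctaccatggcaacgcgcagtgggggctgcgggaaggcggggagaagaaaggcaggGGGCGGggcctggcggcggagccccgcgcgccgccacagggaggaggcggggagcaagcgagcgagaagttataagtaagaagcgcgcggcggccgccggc

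*Klf6*, chr13:5861239-5861481, plus strand: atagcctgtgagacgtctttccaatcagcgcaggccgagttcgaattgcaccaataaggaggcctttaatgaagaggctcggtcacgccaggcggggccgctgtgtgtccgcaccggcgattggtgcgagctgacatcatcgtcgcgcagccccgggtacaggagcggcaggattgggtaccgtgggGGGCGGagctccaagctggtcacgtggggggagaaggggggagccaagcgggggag

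*Klf9*, chr19:23140976-23141225, plus strand: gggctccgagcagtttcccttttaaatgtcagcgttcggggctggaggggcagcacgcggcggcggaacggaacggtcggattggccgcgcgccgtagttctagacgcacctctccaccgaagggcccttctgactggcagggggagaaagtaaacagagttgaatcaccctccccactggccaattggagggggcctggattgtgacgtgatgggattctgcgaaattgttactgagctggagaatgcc

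*Klf13*, chr7:63938916-63939165, minus strand: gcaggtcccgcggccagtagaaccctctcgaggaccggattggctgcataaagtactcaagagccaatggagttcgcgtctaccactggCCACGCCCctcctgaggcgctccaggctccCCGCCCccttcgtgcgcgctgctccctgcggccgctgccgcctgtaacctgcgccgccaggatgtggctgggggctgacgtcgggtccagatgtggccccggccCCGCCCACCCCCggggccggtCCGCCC

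Within the full window of 300 bases, *Klf4* held 4 GC boxes, *Klf13* 3, *Klf2* 2 and *Klf6* 1, and the letters did not occur in *Klf9*. Of the promoters not printed, *Klf3* held 6, *Sp1* 4, and the 2 entries of *Sp3* held 2 and 5. Over the 8 genes with a promoter, 7 held a GC box, against 38.2% of 27025 promoters in the table and 69.5% of 9128 promoters of genes tested in the wild-type fit. The GGGNGTGG site was in 1 of the 8, *Klf13*, against 19.7% and 26.6%. Among genes called lower in restored than in non-restored tumors, 56 of 85 promoters (65.9%) held a GC box, and among those called higher, 58 of 94 (61.7%). The corresponding shares for the KLF-type site were 31.8% and 28.7%. These are counts of letters in a short window and carry no test.

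Levels can be compared between genes only per length, in TPM, the deposited length-corrected transcript share. *Klf6*, an early response factor (chr13:5861482-5870394), had the highest level, with a median of 291 TPM over the 29 units and a range of 70.1 to 476 TPM. It was above the next gene in 28 of 29 units. *Sp3* (median 106 TPM) and *Klf5* (104 TPM) followed and could not be ordered, *Sp3* being higher in 13 of 29 units. *Klf3* had a median of 67.5 TPM and *Klf4* of 50.3 TPM, with *Klf3* higher in 18 units. *Klf10* (32.5 TPM), *Sp1* (30.1 TPM), *Klf2* (30.1 TPM) and *Klf9* (30.1 TPM) lay close together, and *Klf13* was lowest at 21.2 TPM.

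The genes differed in how tightly they were held within a group. The SD of log2 CPM within groups, pooled over the 21 *Trp53* wild-type libraries, was 0.16 for *Sp3*, smaller than for all but 1.86% of the 12636 genes tested, and 0.24 for *Sp1*. It was 1.10 for *Klf4* and 1.03 for *Klf2*, more than for 91.4% and 89.5% of genes. The other 6 lay between 0.27 (*Klf10*) and 0.58 (*Klf6*), around the median of all genes of 0.43. The genes compared were of every level, and the part of level in these ranks was not tested.

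**Figure D1:**
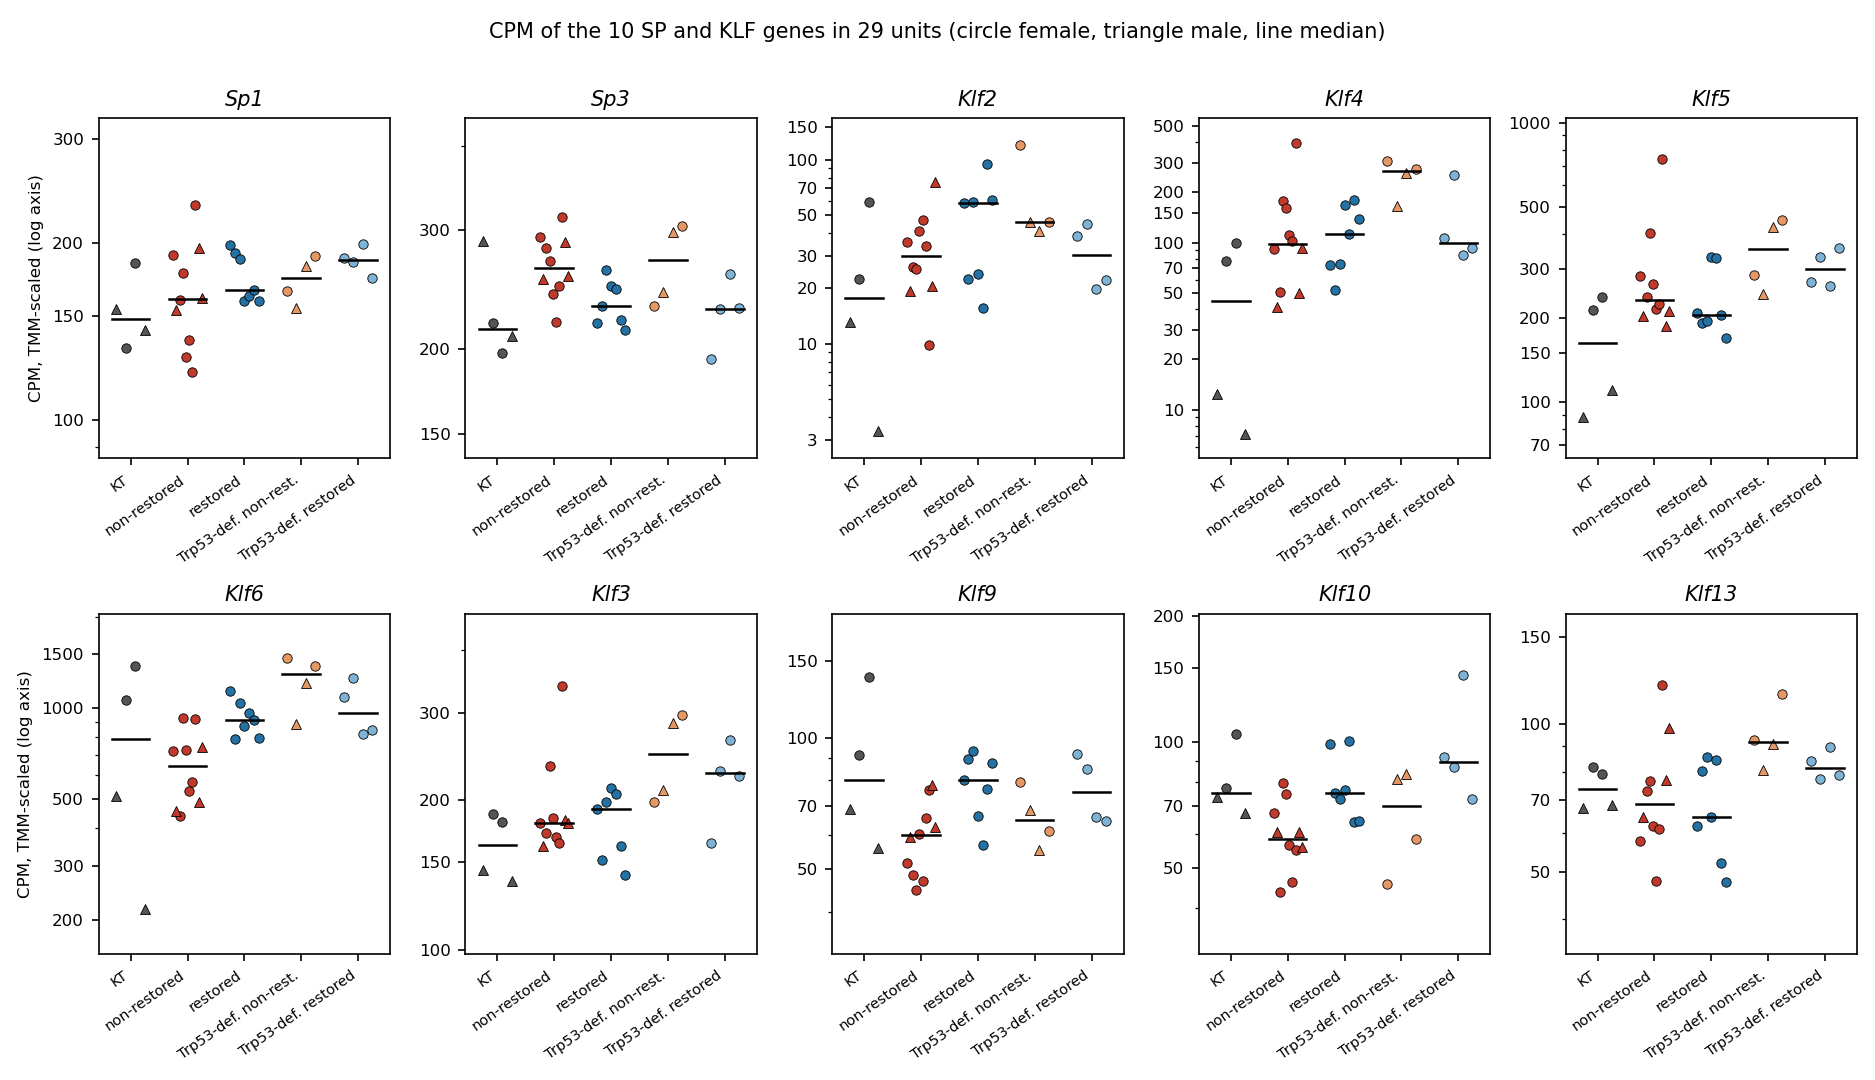
CPM of each gene (log axis) in the 29 units of the 5 groups, with circles for female and triangles for male mice a line at the group median and an axis range of its own in each panel. *Sp1* and *Sp3* form narrow bands, whereas *Klf2* and *Klf4* spread over more than an order of magnitude, with the *KT* male libraries lowest for *Klf4* at 7.19 and 12.4 CPM.

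The first comparison asked whether the factors themselves changed when *Lkb1* was restored. None of the 10 was called at an adjusted p of 0.05 by edgeR's quasi-likelihood test, where 1.87% of the 12636 genes tested were called (0.973% higher and 0.894% lower). The groups overlapped for each of the 10, as they did for all but 0.578% of genes. Unadjusted, 3 of the 10 were below 0.05, against 15.1% of all genes, and DESeq2 called 0 of the 10. Their median log2 fold change was -0.03 beside -0.01 for all genes, with 5 higher and 5 lower. Alveolar type II markers moved with this contrast, 10 of 10 having a positive fold change and 1 being called, and their median sum was 113035 CPM in restored against 58455 CPM in non-restored tumors. The 6 blood cell markers tested were also all positive (median 1.37, 0 called, 3 below 0.05 unadjusted). Negative fold changes were found for 7 of 8 endothelial markers (median -0.42), 6 of 9 fibroblast markers (median -0.24) and 5 of 5 epithelial markers (median -0.22), with 0 called in these lists. Of 8 alveolar type I markers, 5 were lower (median over the 8 -0.27) and 1 was called lower. The part of these markers in the values below was not tested.

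*Klf10*, a TGF-beta-inducible repressor (chr15:38291463-38300706), had the smallest p. It ran from 43.6 to 79.8 CPM with a median of 58.7 in non-restored libraries and from 64.3 to 100.4 with a median of 75.3 in restored ones. All 7 restored libraries were above the non-restored median and 2 were above its highest value. The log2 fold change was 0.38 (SE 0.13, adjusted p = 0.155), and over the alternatives the adjusted p stayed between 0.0925 and 0.385.

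*Klf9*, a repressor induced by glucocorticoid and thyroid hormone (chr19:23141226-23168134), was 44.9 to 77.9 CPM (median 59.9) in non-restored and 57.0 to 93.4 CPM (median 80.3) in restored libraries. The groups overlapped, and 4 of 7 restored libraries exceeded all non-restored ones. The log2 fold change was 0.39 (SE 0.16, adjusted p = 0.247). It differed with the control arm used. Against the tamoxifen-treated mice without FLPo-ERT2 (59.4 to 77.9 CPM) *Klf9* gave 0.15 (adjusted p = 0.805), and against the vehicle-treated mice (44.9 to 62.7 CPM) it gave 0.58 (adjusted p = 0.116).

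*Sp3* (chr2:72936427-72980446) was lower in the restored mean, at 234 ± 18.0 CPM (SD, n = 7) against 267 ± 28.0 CPM (SD, n = 10). All 7 restored libraries were at or under the non-restored median. The log2 fold change was -0.20 (SE 0.09, adjusted p = 0.307). *Sp1* (chr15:102406143-102436404) was 175 ± 16.9 against 166 ± 34.3 CPM, with a 95% interval of the log2 fold change from -0.18 to 0.32.

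*Klf6* was 439.6 to 928 CPM (median 645) in non-restored and 788 to 1137 CPM (median 914) in restored tumors. All 7 restored libraries were above the non-restored median, and 3 were above its highest value. The log2 fold change was 0.50 (SE 0.25, adjusted p = 0.359). *Klf2* (chr8:72319033-72321656) spanned 9.81 to 75.7 CPM and 15.6 to 94.96 CPM in the same groups, and the fitted log2 difference was 0.51 (SE 0.45, adjusted p = 0.652). For *Klf2* the choice of control arm moved the value most, to 1.17 against the tamoxifen arm (9.81 to 34.0 CPM) and 0.20 against the vehicle arm (25.7 to 75.7 CPM), neither of which passed the test.

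The remaining genes did not pass either. The 95% intervals of their log2 fold changes were -1.19 to 0.85 for *Klf4* (chr4:55527143-55532466), a factor of epithelial differentiation, and -0.95 to 0.21 for *Klf5* (chr14:99298691-99315036), which acts in epithelial progenitors. They were -0.44 to 0.16 for *Klf3* (chr5:64803388-64832901) and -0.48 to 0.22 for *Klf13* (chr7:63886351-63938915). The *Klf4* value rested on non-restored library 8, turning from -0.17 with it to 0.23 without it. Without it the *Klf5* value moved from -0.37 to -0.10 and the *Klf3* value from -0.14 to -0.01. That library had the highest level of its group for 6 of the 10 genes, with *Klf4* at 395 CPM, *Klf5* at 739 CPM and *Klf3* at 339 CPM, and the lowest for *Klf2*.

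**Figure D2:**
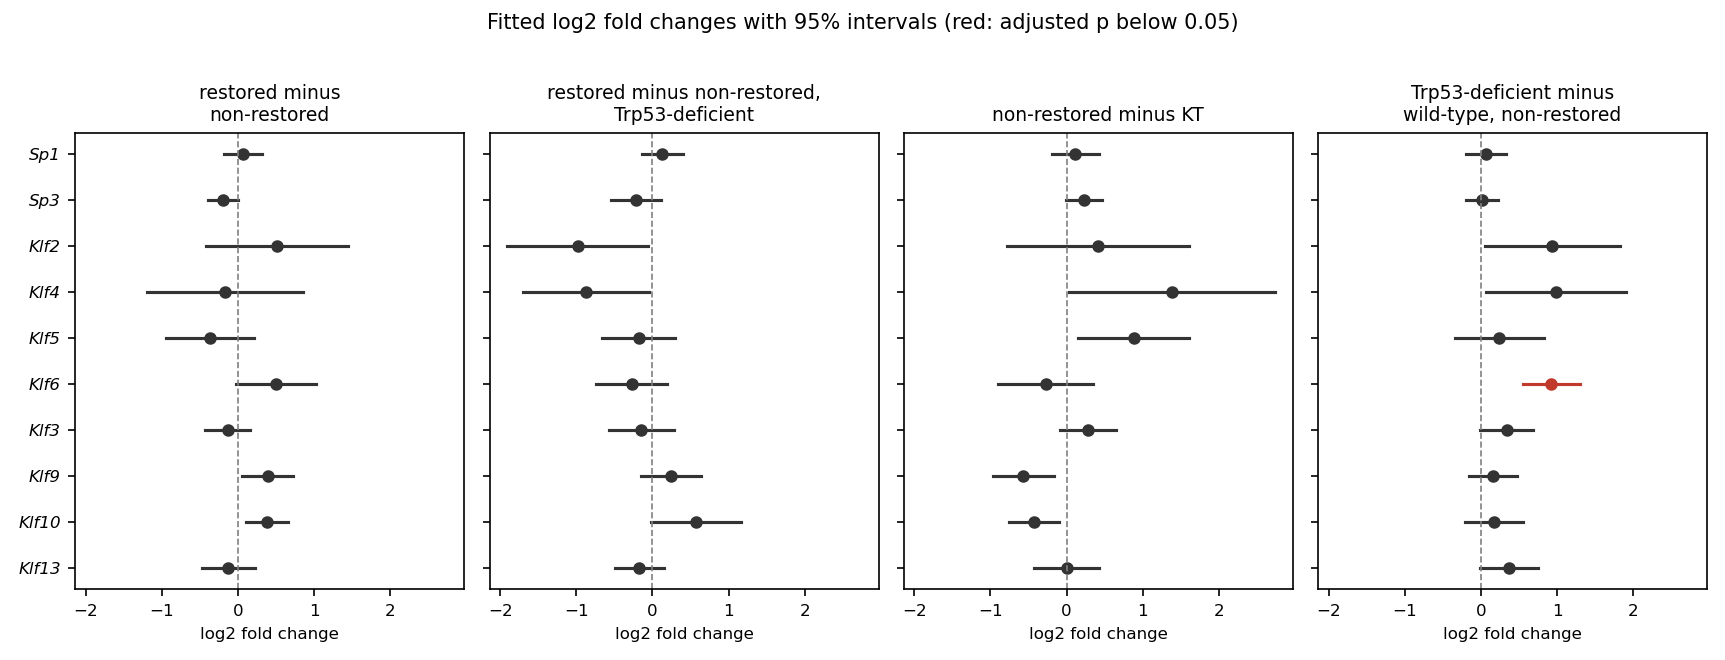
Fitted log2 fold changes (dots) and 95% intervals (lines) of the 10 genes in 4 comparisons, drawn red where the adjusted p was below 0.05. Only *Klf6* in the *Trp53* comparison is red, at 0.92, and the intervals of *Klf2* and *Klf4* are the widest in each panel.

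The second comparison set tumors with trapped *Lkb1* against *KT* tumors that never lost it. None of the 10 genes was called by edgeR, where 5.86% of genes were called (2.38% higher and 3.48% lower). The groups overlapped for each of the 10, and 3.91% of genes did not overlap. Unadjusted, 4 of the 10 were below 0.05, against 20.8% of all genes, and DESeq2 called 0 of the 10. *Klf9* and *Klf10* had lower means in non-restored tumors and *Klf4* and *Klf5* higher means. Markers of other cells moved in this contrast too. Endothelial markers had positive fold changes in 7 of 8 tested (median 1.75) and fibroblast markers in 8 of 9 (median 1.504), with 0 called in either list, and alveolar type II markers had negative ones in 9 of 10 (median -0.57, 1 called). Their part in the values below was not tested.

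*Klf9* was 68.8, 91.6, 138 and 56.1 CPM in *KT* libraries 1 to 4, above the non-restored median of 59.9 CPM in 3 of 4. Its log2 fold change was -0.57 (SE 0.19, adjusted p = 0.0836). The adjusted p of *Klf9* dropped under 0.05 in 5 of the 23 alternatives. With female libraries alone the value was -1.03 (adjusted p = 0.0259), with the vehicle arm alone -0.75 (adjusted p = 0.0358), without *KT* library 4 -0.75 (adjusted p = 0.0323) and without non-restored library 8 -0.62 (adjusted p = 0.0469). The fifth was the fit with replicate number as a block. Without *KT* library 3, the highest for *Klf9*, the value was -0.27 (adjusted p = 0.471). *Klf10* was 73.7, 77.4, 104.5 and 67.6 CPM in the *KT* libraries, and 8 of 10 non-restored libraries were below the lowest of these. Its log2 fold change was -0.43 (SE 0.16, adjusted p = 0.119).

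*Klf4* split the *KT* libraries by sex. It was 12.4 and 7.19 CPM in the male libraries 1 and 4 and 77.4 and 99.6 CPM in the female libraries 2 and 3, beside 41.3 to 395 CPM in non-restored tumors. The same male libraries were lowest for *Klf2* (13.1 and 3.35 CPM), *Klf5* (88.1 and 111 CPM) and *Klf6* (513 and 217 CPM). The 3 male non-restored libraries had 41.3, 49.7 and 93.3 CPM of *Klf4*, and 2 of them were below the lowest of the 7 female ones (50.5 CPM). The *Klf4* log2 fold change of 1.39 (SE 0.65, adjusted p = 0.228) became 0.81 (adjusted p = 0.630) with female libraries alone, and that of *Klf5*, 0.88 (SE 0.35, adjusted p = 0.151), became 0.59 (adjusted p = 0.597). The mean log2 CPM of the immediate early genes (described below) split the *KT* libraries in the same way. It was 7.68 and 6.00 in the male libraries 1 and 4 and 8.10 and 8.71 in the female libraries 2 and 3. With 2 libraries of each sex in *KT*, sex and other differences between these mice, this mean among them, cannot be told apart.

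Restored tumors were also set against *KT*. Of the 10 genes 0 were called by edgeR or DESeq2 and 0 were below 0.05 unadjusted, where 0.459% of genes were called (0.127% higher and 0.332% lower) and 10.5% were below 0.05 unadjusted. All 10 overlapped between the groups, and 2.79% of genes did not. Both comparisons share the *KT* libraries. The largest fitted difference was that of *Klf4*, 1.21 (SE 0.67, adjusted p = 0.552), and it was 0.37 with female libraries alone.

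The restoration comparison was repeated in tumors without *Trp53*, over 4 animals against 4. No gene at all, *Lkb1* included, was called by edgeR there (0% of 12516 genes, with 5.98% below 0.05 unadjusted). Of the 10 genes 2 were below 0.05 unadjusted and DESeq2 called 0. As the restored gene itself was not called, the lack of calls does not show that the 10 were unchanged. The 10 genes overlapped between the groups, against 3.63% of genes that did not. Of 16 immediate early genes (described below), 15 had negative fold changes (median -0.32) and 4 were below 0.05 unadjusted. Positive fold changes were found for 10 of 10 alveolar type II markers (median 0.60), 7 of 9 fibroblast markers (median 1.14) and 5 of 6 endothelial markers (median 0.65). The part of these lists in the values below was not tested. *Klf2* was 119.6, 46.1, 40.9 and 46.1 CPM in the non-restored animals and 38.4, 44.8, 19.8 and 22.1 CPM in the restored ones. In all, 3 restored animals were below every non-restored one, and animal 1 of the non-restored group stood far above the rest. Its 3 libraries were close to each other, at 109 to 118 CPM before TMM scaling. The *Klf2* log2 fold change was -0.98 (SE 0.41, adjusted p = 0.804), and without that animal it was -0.49 (adjusted p = 0.891).

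*Klf4* behaved alike in these animals, with 308, 166, 259 and 274 CPM in non-restored and 107, 254, 84.4 and 92.8 CPM in restored ones. The groups overlapped through a single restored animal. Its log2 fold change was -0.87 (SE 0.37, adjusted p = 0.804). *Klf10* was 45.6, 81.6, 83.8 and 58.5 CPM against 91.8, 87.0, 145 and 73.0 CPM, a fitted log2 difference of 0.57 (SE 0.26, adjusted p = 0.804). *Klf10* was thus above the non-restored median in 4 of 4 restored animals here and in 7 of 7 restored libraries with *Trp53*, without passing the test in either background.

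Whether restoration acted differently without *Trp53* was tested by an interaction term over 25 units. No gene of 13706 was called by edgeR (0%, with 3.08% below 0.05 unadjusted). Of the 10 genes DESeq2 also called 0, and 2 were below 0.05 unadjusted. The *Klf6* effect was lower by 0.81 on the log2 scale in *Trp53*-deficient tumors (interaction -0.81, SE 0.27, unadjusted p = 0.00687, adjusted p = 0.9999). For *Klf2* the interaction was -1.53 (SE 0.66, unadjusted p = 0.0286, adjusted p = 0.9999). The mean log2 CPM of the immediate early genes described below moved alongside. With restoration it went from 8.05 to 8.44 in the wild-type background and from 8.44 to 8.01 in the deficient one. Of 16 such genes tested here, 15 had a negative interaction, 0 were called and 7 were below 0.05 unadjusted, against 3.08% of all genes. Their part in these values was not tested.

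With *Lkb1* trapped, *Trp53*-deficient tumors were set against wild-type ones. *Klf6* was called higher, 1 of the 10, where 0.584% of 13706 genes were called and 0.365% called higher, and 3 of the 10 were below 0.05 unadjusted against 17.7% of genes. No member was without overlap between the groups, where 0.679% of genes were. *Klf6* was 1460.1, 887, 1209 and 1374 CPM in the 4 animals against 439.6 to 928 CPM (median 645) in the 10 wild-type libraries. Of the animals, 3 were above every wild-type library and 1 fell inside their range. The log2 fold change of *Klf6* was 0.92 (SE 0.18, 95% interval 0.55 to 1.30, adjusted p = 0.0158). It kept the call under 17 of 19 alternatives. It lost the call without animal 1 (0.82, adjusted p = 0.0875) and without animal 4 (0.87, adjusted p = 0.0909). Animal 4 stood apart from the other 3, with an airway marker sum of 12910 CPM against 153 to 612 CPM and an alveolar type II sum of 8337 CPM against 25471 to 36879 CPM. The deficient tumors were also younger, by design, and age of the tumor and *Trp53* cannot be told apart.

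All 10 genes had a positive fold change in this comparison, with a median of 0.29 beside -0.02 for all genes, of which 48.4% were positive. Sizes ran from 0.02 for *Sp3*, whose sign turned under 5 alternatives, to 0.99 for *Klf4* (SE 0.45, adjusted p = 0.253). *Klf4* was 166 to 308 CPM in the deficient animals against a wild-type median of 97.5 CPM. Leaving out non-restored library 8 brought *Klf4* to 1.36 (adjusted p = 0.0251) and *Klf3* to 0.45 (adjusted p = 0.0357), so that 3 of the 10 were then called. The calls over all genes rose as well, from 80 to 1448 of 13429 genes tested (10.8%). Alveolar type II markers moved with this contrast, with a median sum of 26133 CPM in the deficient animals against 58455 CPM. Of 16 immediate early genes (described below), 14 had positive and 2 negative fold changes (median 0.42). Of these 16, 0 were called and 6 were below 0.05 unadjusted, against 17.7% of genes. Endothelial markers had negative fold changes in 9 of 9 (median -0.92) and fibroblast markers positive ones in 8 of 9 (median 0.49), with 0 called in either list. The part of these lists was not tested. After restoration, *Trp53*-deficient and wild-type tumors differed in 0 of the 10 genes by edgeR or DESeq2, where 0.372% of genes were called, and 0 of the 10 were below 0.05 unadjusted against 15.5%. Each of the 10 overlapped there too, unlike 3.12% of genes.

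The other members of the family were mostly silent. Of 17 further SP and KLF genes listed, 7 passed the filter in the wild-type fit, among them *Klf11* (median 12.9 TPM), *Klf7* (11.4 TPM), *Sp4* (9.38 TPM) and *Klf15* (6.59 TPM), with *Sp2*, *Klf16* and *Sp5* lower. *Klf7*, a factor known from neurons, was called once, in the comparison in which *Klf6* was called and 0.584% of all genes were called. It was 70.3 to 136 CPM in the 4 *Trp53*-deficient non-restored animals against 32.6 to 86.6 CPM (median 40.8) in the wild-type libraries, so that the fitted log2 difference was 1.01 (SE 0.20, adjusted p = 0.0149). The *Klf7* call was lost without animal 4, the animal with the high airway sum (0.82, adjusted p = 0.150). On restoration with wild-type *Trp53*, 6 of the 7 had a positive fold change, beside 48.2% of all genes. By edgeR 0 of the 7 were called and 0 were below 0.05 unadjusted, beside 1.87% and 15.1% of all genes. *Klf15*, a glucocorticoid-induced metabolic regulator, had the largest fold change on the log2 scale, 0.92 (SE 0.46, adjusted p = 0.350).

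The proteins through which these factors act were listed next. Of 12 partners (the CtBP and SIN3 corepressors, histone deacetylases and acetyltransferases, and ubiquitin ligases of KLF proteins), 0 were called on restoration and 4 were below 0.05 unadjusted, beside 1.87% and 15.1% of all genes. These were *Fbxw7*, a ubiquitin ligase subunit (log2 fold change 0.61, adjusted p = 0.135), *Hdac1* (-0.73, adjusted p = 0.143), *Sin3b* (-0.40, adjusted p = 0.160) and *Kat2b* (0.40, adjusted p = 0.200). *Kat2b*, the acetyltransferase PCAF, was called in the comparison with *KT*, being lower in non-restored tumors (-0.79, SE 0.18, adjusted p = 0.00975), at 85.0 ± 11.9 CPM (SD, n = 10) against 147 ± 34.9 CPM (SD, n = 4). The *Kat2b* call held in 21 of 24 fits, the main one included. It was lost with female libraries alone (-0.60, adjusted p = 0.298), and the adjusted p reached 0.0872 when 1 library was left out.

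Of 14 genes named in textbooks as SP or KLF targets, 13 were tested. On restoration 0 were called and 3 were below 0.05 unadjusted, beside the same shares of all genes, among them *Ccnd1*, the cyclin D1 gene (-0.57, SE 0.16, adjusted p = 0.0672), and *Lgals3* (-1.06, adjusted p = 0.170), and the median over the 13 was -0.15. *Cdkn1a*, the p21 gene and also a target of p53, was called in 3 comparisons. It was higher in non-restored than in *KT* tumors (1.00, SE 0.19, adjusted p = 0.00269), and lower without *Trp53* both in non-restored (-1.35, adjusted p = 0.00461) and in restored tumors (-1.62, adjusted p = 0.000944). The first of these *Cdkn1a* calls was lost with female libraries alone (0.59, adjusted p = 0.128).

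Across libraries of the same group, *Klf3*, *Klf4*, *Klf5* and *Klf6* were positively related. With group means removed, *Klf3* and *Klf5* had a Pearson r of 0.89 over the 21 *Trp53* wild-type libraries, *Klf4* and *Klf6* of 0.82 and *Klf4* and *Klf5* of 0.79. Without non-restored library 8 these values were 0.81, 0.82 and 0.74 over 20 libraries. *Klf13* had 0.68 with *Klf3* and 0.52 with *Klf5*, which were 0.49 and 0.26 without library 8. *Klf6* had 0.55 with *Klf10* and 0.54 with *Klf9*, and 0.59 and 0.51 without that library. *Klf2* had 0.55 with *Klf6* and 0.37 with *Klf4*, which were 0.71 and 0.65 without it, and its values with *Klf3* (-0.19) and *Klf5* (-0.14) turned to 0.12 and 0.14. These correlations share libraries and depth and are given as a description.

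**Figure D3:**
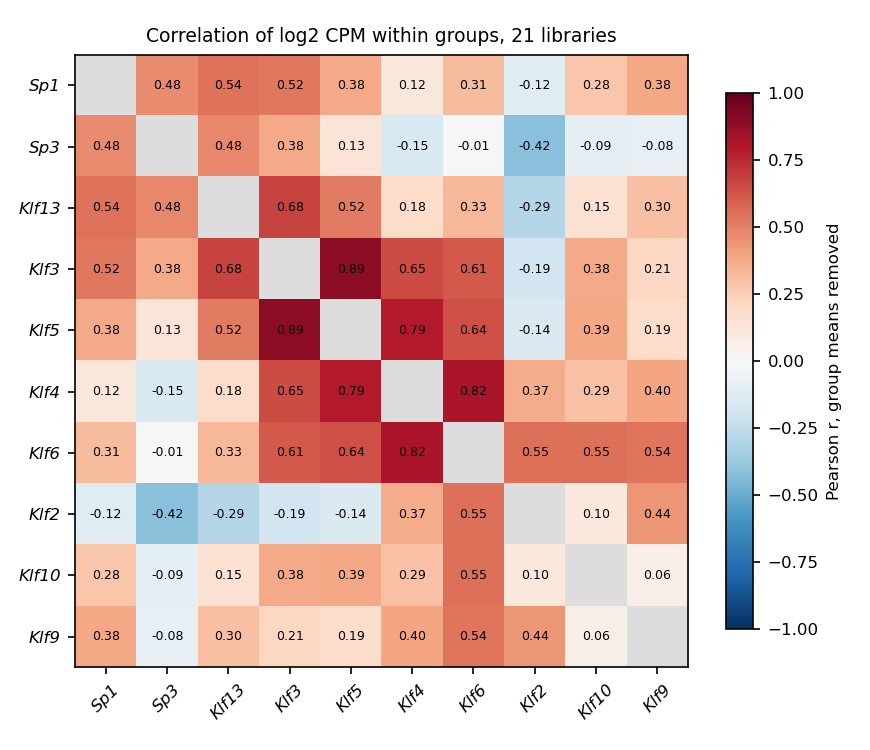
Pearson r of log2 CPM between the 10 genes over 21 *Trp53* wild-type libraries after the group means were removed, from blue (negative) to red (positive). *Klf3*, *Klf4*, *Klf5* and *Klf6* have values from 0.61 to 0.89 among themselves, and *Klf3* with *Klf13* reaches 0.68. Non-restored library 8 is included.

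The genes most like each factor over the 21 libraries were named by Pearson r of log2 CPM, with library 8 included. *Klf2* was closest to *Btg2* (0.85) and *Egr2* (0.84). *Klf4* was closest to *Tsc22d1* (0.95) and *Pnrc1* (0.92), *Klf5* to *Rel* (0.94) and *G3bp1* (0.93), and *Klf6* to *Skil* (0.85) and *Atf3* (0.84). *Klf3* was closest to *Ppp2r3a* (0.92) and *Scamp2* (0.92). The best matches of the other genes were weaker, namely *Nup155* (0.87) and *Efr3a* (0.84) for *Sp3*, *Cpne3* (0.79) and *Ddx6* (0.78) for *Sp1*, *Zrsr1* (0.80) and *Rpl21* (0.79) for *Klf9*, *Tc2n* (0.75) and *Sub1* (0.73) for *Klf10*, and *Rbm7* (0.82) and *Nhlrc2* (0.81) for *Klf13*.

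*Btg2*, *Egr2* and *Atf3* are immediate early genes, which respond within minutes to growth factors and also to the enzymatic dissociation of tissue that preceded sorting. The mean log2 CPM of 15 such genes, which include these 3, was set beside each factor. It ran from 6.00 to 8.71 in *KT*, from 7.53 to 8.47 in non-restored and from 8.01 to 8.77 in restored libraries. On restoration 12 of the 15 had a positive fold change, 0 were called and 3 were below 0.05 unadjusted, where 48.2% of all genes were positive, 1.87% called and 15.1% below 0.05. The 3 were *Jun* (0.72, adjusted p = 0.183), *Egr2* (0.88, adjusted p = 0.189) and *Egr1* (0.59, adjusted p = 0.238). *Dusp1*, a phosphatase of MAP kinases, was called higher in non-restored than in *KT* tumors (1.14, SE 0.29, adjusted p = 0.0226), and lost the call under 6 of 23 alternatives, among them female libraries alone (0.63, adjusted p = 0.457) and leaving out *KT* library 1 (adjusted p = 0.0915) or 4 (adjusted p = 0.0791).

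*Klf2* followed this mean closely, with a Pearson r of 0.88 and a Spearman rho of 0.82 over 21 libraries. Both gave p = 1e-05 in a two-sided permutation test, the smallest that 100000 resamples can give, and r was 0.77 without the 2 libraries farthest from the median. The relation held within groups, with r of 0.83 over 10 non-restored and 0.77 over 7 restored libraries. Since *Btg2*, *Egr2* and *Atf3* are part of the mean, it was also taken over the other 12 genes, which gave *Klf2* an r of 0.86 over 21 libraries, 0.78 within non-restored and 0.70 within restored ones. *Klf6* had an r of 0.76 (permutation p = 0.0005) and a rho of 0.54 (permutation p = 0.0136) over all 21, but 0.08 within non-restored and 0.14 within restored libraries. Without library 8, which had the lowest immediate early mean of its group, *Klf6* had an r of 0.48 over the other 9 non-restored libraries. Within the 4 *KT* libraries its r was 0.98. *Klf4* had an r of 0.66 (permutation p = 0.00346) and a rho of 0.50 (permutation p = 0.0222), with 0.02 within non-restored and 0.75 within restored libraries. The 0.02 rested on library 8, and over the other 9 non-restored libraries *Klf4* had an r of 0.69. *Sp3* went the other way by rank, with a rho of -0.52 (permutation p = 0.0167) and an r of -0.21 (permutation p = 0.388), and had r of -0.77 within non-restored libraries. Without the 2 libraries farthest from the median, r was -0.73 for *Sp3*, 0.65 for *Klf6* and 0.71 for *Klf4*. *Klf13* had r of -0.68 and -0.84 within non-restored and restored libraries, beside -0.30 (permutation p = 0.177) over all 21. Without library 8 the non-restored values were -0.66 for *Sp3* and -0.49 for *Klf13*. Against the mean of *Fos*, *Jun* and *Egr1* alone, r was 0.88 for *Klf2*, 0.66 for *Klf6* and 0.52 for *Klf4*, and the *Sp3* rho was -0.29 (permutation p = 0.208). In all, 10 such relations were computed with each measure, and since the genes were chosen with results known, no p adjusted over them is given.

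**Figure D4:**
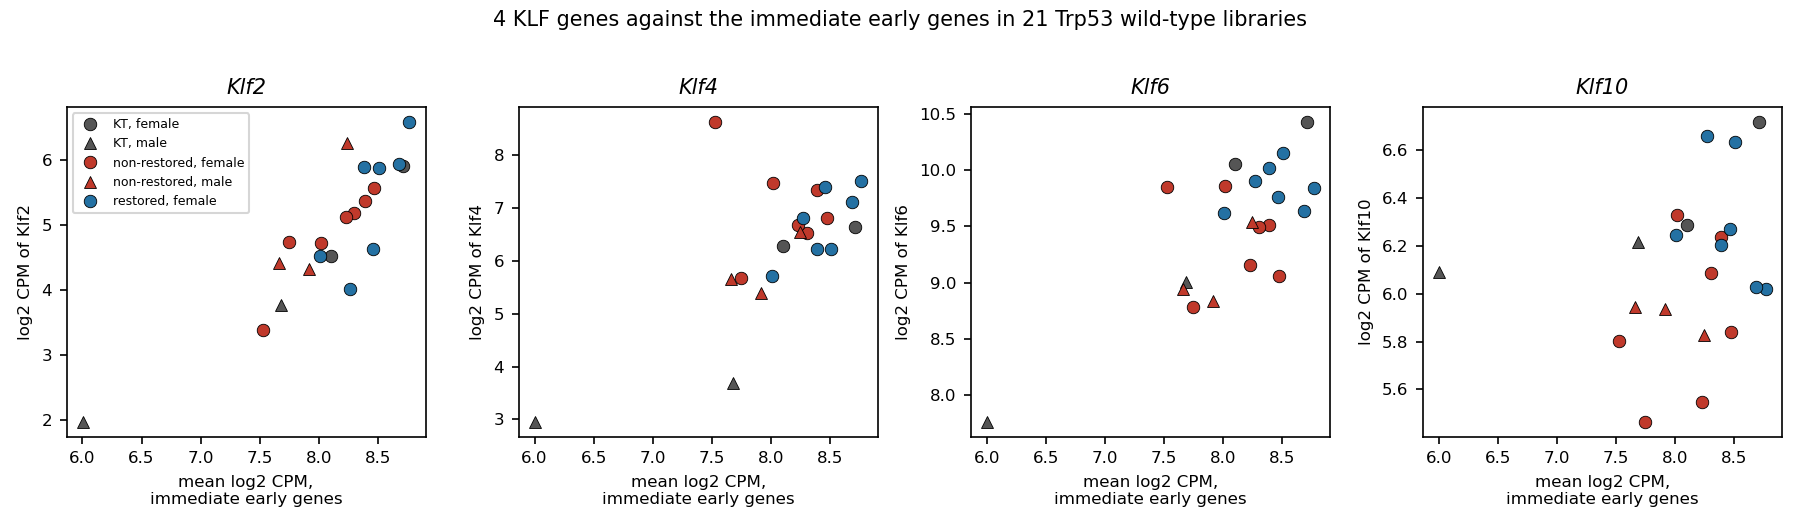
Log2 CPM of *Klf2*, *Klf4*, *Klf6* and *Klf10* against the mean log2 CPM of 15 immediate early genes in the 21 *Trp53* wild-type libraries, colored by group with circles for female and triangles for male mice. *Klf2* rises along the whole axis (r 0.88), *Klf10* does not (r 0.24), and *KT* library 4 lies alone at 6.00.

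Because *Klf2* is high in endothelium and lymphocytes, markers of endothelial cells and of blood cells were summed in each library. The blood cell list held myeloid as well as lymphoid markers, so its sum is not one of lymphocytes alone. Of its 15 markers, 10 had at most 3 counts in every *KT* library, 6 in every non-restored and 4 in every restored one. The sum of 10 endothelial markers ran from 2.51 to 159 CPM and that of 15 blood cell markers from 9.71 to 228 CPM over the *Trp53* wild-type libraries. Non-restored library 10 had both the highest *Klf2* of its group (75.7 CPM) and its highest endothelial sum (159 CPM), and library 8 the lowest of both (9.81 and 2.51 CPM). Non-restored library 2 went the other way, with the second highest endothelial sum (127 CPM), the highest blood cell sum (106 CPM) and 19.4 CPM of *Klf2*. In the restored group, library 6, highest for *Klf2* at 94.96 CPM, had a blood cell sum of 144 CPM beside a group median of 25.8 CPM. Restored library 1 had the highest blood cell sum, 228 CPM, with *Klf2* at its group median of 58.1 CPM. *KT* library 3, with 59.0 CPM of *Klf2*, had the lowest endothelial sum of its group, 12.7 CPM. In bulk RNA fewer cells of a type and less RNA per cell cannot be told apart, and the part of these cells in the *Klf2* level was not tested.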

How the data were processed

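RNA was sequenced from sorted neoplastic cells after ribosomal RNA depletion. Per the labels, the submitters' notes name STAR 2.6.1d, RSEM 1.2.30, DESeq2 1.26.0 and the mouse build mm10. The authors' RSEM step gave the deposited expected counts, estimated reads per gene that need not be whole (on average 5.57% of values were not), together with TPM and an effective length. Reads shared by similar genes are split by that estimate.

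Expected counts were rounded. edgeR 4.0.16 (R 4.3.3, limma 3.58.1) fitted quasi-likelihood models with filterByExpr and TMM scaling, 1 over 21 *Trp53* wild-type libraries (12636 genes), 1 over 8 *Trp53*-deficient animals (12516 genes) and 1 over 25 units (13706 genes). In the fits with *Trp53*-deficient tumors, libraries of 1 animal were summed. P-values were adjusted over all genes tested by the Benjamini-Hochberg method, with a threshold of 0.05, in 7 comparisons. The code was tested on simulated data. CPM are TMM-scaled, and log2 CPM used a prior count of 2. Correlations were tested with 100000 permutations in scipy 1.17.1.

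Alternatives were DESeq2 1.42.0, other size factors, no low count filter, effective length offsets, female libraries, single control arms, 2-group fits, a replicate block, separate libraries and leaving out each library. Correlations without non-restored library 8 and without 3 of the immediate early genes were added after seeing the data. The members and lists were chosen with earlier results of these data known. Besides the 10 members, the genes to be named were the other SP and KLF genes that passed the filter, the 2 genes most like each member, and from each further list any gene past the threshold in a comparison and, otherwise, the 3 with the smallest p on restoration. The totals above give the depth, and 3 counts set the floor, for counting error only. Gene positions are from GENCODE M21 on GRCm38, and promoters from RefSeq. *Klf5* and *Klf10* were not among the promoters. An allele shared by all groups and 1 listed gene are not reported here.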

Additional observations from a re-analysis of the deposited data

Results flagged for a closer look

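Among 50 combinations of a gene and a group, 2 had a library or animal far from the others by Dixon's criterion, which chance meets in about 1 in 20. The gap and the range were taken on the log2 CPM scale. *Klf2* was 119.6 CPM in *Trp53*-deficient non-restored animal 1, where the next of the 4 animals had 46.1 CPM and the gap was 0.887 of the range (critical value 0.829). *Klf3* was 339 CPM in non-restored library 8, where the next of the 10 libraries had 234 CPM and the gap was 0.499 of the range (critical value 0.466). That library also had the lowest mean of the immediate early genes in its group, 7.53 on the log2 CPM scale.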

How the results depend on the processing

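Of 773 values of the 10 genes under the alternatives, over the 38 fold changes followed, 754 kept their sign and their side of the threshold, 10 changed sign, 7 passed the threshold anew and 2 lost it. Between non-restored and restored libraries, the 7 pairs with the same replicate number had correlated deviations of 0.05 to 0.50 (median 0.15). The 63 pairs with different numbers had -0.46 to 0.62 (median 0.015). Pairs with the same number had -0.03 at the lowest between *KT* and non-restored and -0.05 between *KT* and restored libraries. The labels do not name pairs, and the numbers were taken as a block only as an alternative. With the replicate block, 1 of the 10 was called in non-restored against *KT* tumors (*Klf9*, -0.67, adjusted p = 0.0458) and 0 in the other comparisons, while *Klf4* turned to 0.10 and *Klf13* to 0.080 on restoration. That count against *KT* was also 1 with female libraries only and with the vehicle arm only, and 0 to 1 when 1 library was left out. Over all genes the block called 705 of 12636 against *KT*, female libraries 132 of 13394 and the vehicle arm 653 of 12284. The count in *Trp53*-deficient against wild-type non-restored tumors, 1, ranged from 0 to 3 when 1 animal or library was left out. On restoration *Sp1* turned to -0.026 with the tamoxifen arm only, and *Klf4* to 0.0047 with the vehicle arm only and from -0.32 to 0.23 when 1 library was left out. In the *Trp53* comparison *Sp3* turned to -0.055 with *Trp53*-deficient libraries as separate units and to -0.030 with effective length offsets, and ranged from -0.046 to 0.074 when 1 unit was left out. Over all genes, DESeq2 called 467 in place of 236 on restoration, 168 in place of 58 in restored against *KT*, 412 in place of 80 and 216 in place of 51 in the *Trp53* comparisons, and 23 in place of 0 on restoration without *Trp53*. Female libraries alone gave 132 in place of 741 in non-restored against *KT* and 10 in place of 58 in restored against *KT*, the tamoxifen arm alone 280 in place of 741 and 50 in place of 236, and separate libraries 465 in place of 80. Leaving out 1 animal or library gave 26 to 1448 calls in place of 80, the highest without non-restored library 8 and the lowest without *Trp53*-deficient animal 1, 340 to 951 in place of 741, 145 to 319 in place of 236, 21 to 57 in place of 58 and 25 to 64 in place of 51. The causes were not tested. Of 207 alternative values of 10 called values of other genes, 11 lost the call and 0 changed sign. The number of the 10 genes with r over 0.5 to the immediate early mean was 3, and 4 without non-restored library 8.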
